A study of Mus musculus with 6 samples.

Results

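The genes described here encode matrix metalloproteinases (Mmp), the metalloprotease families ADAM and ADAMTS, cathepsins (Cts) and the tissue inhibitors of metalloproteinases (Timp), measured in 4T1-LM3 mouse mammary carcinoma cells. They were taken by symbol: every row named Mmp with a number, Timp1 to Timp4, Adam or Adamts with a number, or Cts with 1 letter. The rule took 71 of the 16426 genes in the table, and 32 of these had at least 1 FPKM (fragments per kilobase of transcript, scaled to the mapped fragments of the library) in at least 3 libraries, against 10804 genes in all. Only those 32 were tested. All 6 samples were 4T1-LM3 cells cultured in conditioned medium (CM), which carries what other cells have released. For 3 samples it was taken from matrix fibroblasts (MFs) high in Tdo2, the gene of the enzyme that opens the route from tryptophan to kynurenine, and the other 3 samples received a control medium. The labels do not give the cells behind the control medium, the length of treatment or whether the 3 samples of each medium were grown apart. The tests therefore set differences against the variation among these 6 libraries alone, and that variation may be no more than technical.

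Matrix metalloproteinases are zinc enzymes that cut collagens, proteoglycans and other matrix proteins, and most are secreted as inactive precursors. TIMPs block their active site. ADAMs sit in the cell membrane and release the outer parts of growth factors, cytokines and receptors, ADAMTS enzymes are secreted and act on proteoglycans and procollagens, and cathepsins work mainly in lysosomes. In mammary carcinoma these families are studied for their part in invasion and in reshaping the matrix at metastatic sites.

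After Tdo2high CM, 2 secreted metalloproteinases rose and 5 members fell. Mmp3, stromelysin-1, which cuts proteoglycans and activates other metalloproteinases, rose to 1.40 times its control level, and Mmp13, collagenase-3, to 1.51 times. Adamts1, Adamts7, Adamts14, Mmp11 and Ctsz fell to between 0.830 and 0.879 times their control levels. The other 25 tested members were not called. The 7 calls are 21.9% of the 32 tested members, and 7.41% of all tested genes were called (limma, adjusted p under 0.05 over all genes), 3.35% higher and 4.06% lower. At an unadjusted p under 0.05 there were 14 of the 32 members, against 23.7% of all tested genes. The median log2 fold change was -0.02 over the 32 members and -0.01 over all tested genes. Scaling by the median of ratios or by quantiles gave 3 higher and 4 lower members, where the same scalings gave 455 and 367 or 385 and 401 genes in all against 362 and 439 as deposited. Mmp3 and Mmp13 were called without any 1 of the 6 libraries, whereas the count of lower members was 3 without Tdo2high CM replicate 1, 1 without Tdo2high CM replicate 3 and 2 without any 1 of the other 4 libraries.

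**Figure D1:**
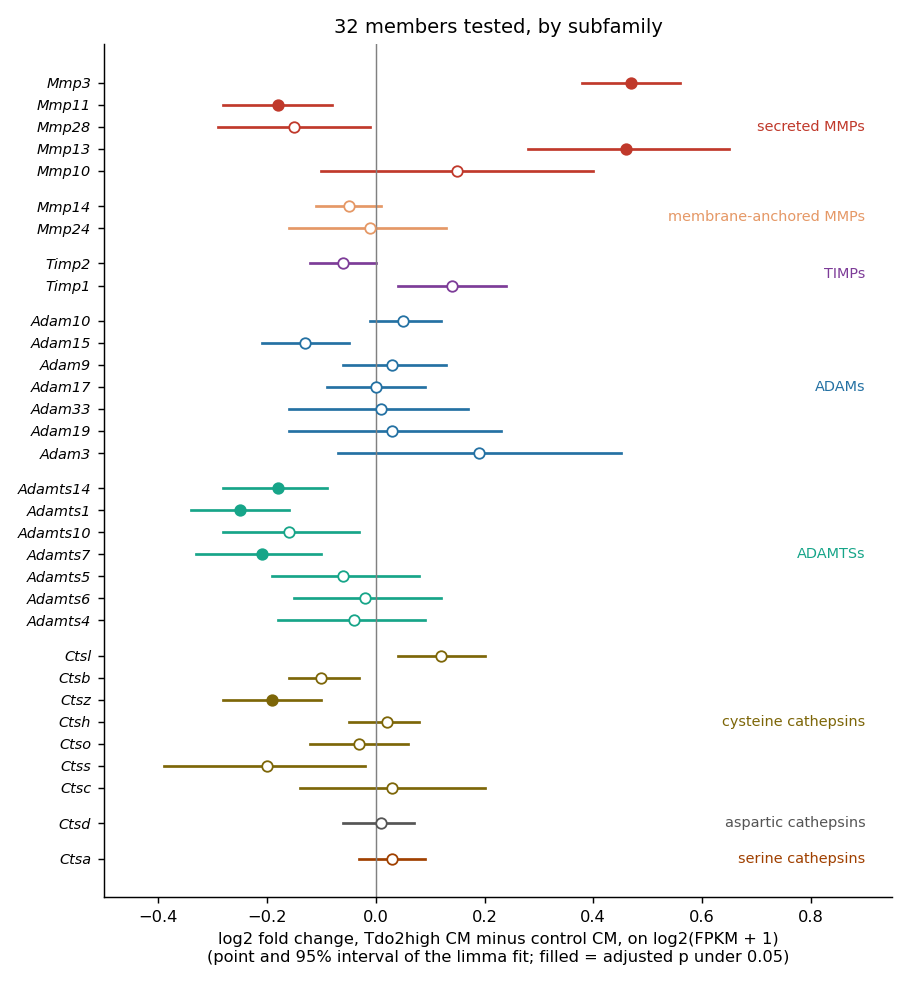
Log2 fold change of the 32 tested members (Tdo2high CM minus control CM, on log2(FPKM + 1)) with the 95% interval of the limma fit, grouped by subfamily, and filled where the adjusted p was under 0.05. Mmp3 and Mmp13 stand to the right at 0.47 and 0.46, and all 7 ADAMTS points lie to the left of 0.

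Across libraries the summed FPKM of the table ran from 438603 to 447415, and 10765 to 10791 genes reached 1 FPKM. The number of reads behind each value is not known. Of 7 epithelial markers in the table, Krt8 and Krt18 had means of 272 and 356 FPKM with control CM. Krt7, Krt14 and Krt5 had 0.517, 0.0167 and 0.0233, and Cdh1 and Epcam had 0.0167 and 0.0567. The labelled carcinoma cells thus held Krt8 and Krt18 mRNA. The other 5 markers stayed under 1 FPKM in every library, among them Cdh1 and Epcam, which mark epithelial cells. Of 7 fibroblast markers in the table, Col1a1, Col1a2 and Lum stayed under 1 FPKM in every library. With control CM Pdgfra had 41.9 FPKM, Pdgfrb 23.6, Dcn 15.5 and Fap 4.0. By limma Pdgfra (log2 fold change 0.17) was higher with Tdo2high CM, Dcn (-0.48) and Fap (-0.31) were lower, and Pdgfrb (-0.03) was not called. The summed level of those markers was 84.1 to 86.6 FPKM with control CM and 83.4 to 86.0 with Tdo2high CM. Of 6 leukocyte markers Lyz2, Csf1r, Itgam and Laptm5 stayed under 1 FPKM, with a summed level of 8.07 to 10.3 and 9.94 to 11.5 FPKM, most of it Cd14 and Cd68. The part of these markers in the results that follow was not tested. In RNA from whole cultures, fewer cells of a type and less RNA per cell cannot be told apart.

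The promoters of the chromosome 9 metalloproteinases are shown first, because the 2 genes that rose lie in 1 cluster with the weakly expressed Mmp10. Each line gives 120 bases that end at the base before the start of the RefSeq gene (GRCm38.p6), read 5′ to 3′ on the gene's strand, and capitals mark matches to TGANTCA, the site bound by AP-1 transcription factors; Adamts1, a member that fell, is shown for comparison. The windows are chr9:7445702-7445821 (plus strand) for Mmp3, chr9:7272394-7272513 (plus) for Mmp13, chr9:7502222-7502341 (plus) for Mmp10 and chr16:85803114-85803233 (minus) for Adamts1.
Mmp3: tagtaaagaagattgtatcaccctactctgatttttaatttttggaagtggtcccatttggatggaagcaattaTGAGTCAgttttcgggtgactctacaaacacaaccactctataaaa
Mmp13: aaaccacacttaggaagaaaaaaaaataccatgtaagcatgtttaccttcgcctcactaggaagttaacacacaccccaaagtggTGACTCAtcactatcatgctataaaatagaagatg
Mmp10: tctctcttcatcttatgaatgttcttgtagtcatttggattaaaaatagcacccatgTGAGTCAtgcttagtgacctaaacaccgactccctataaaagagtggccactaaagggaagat
Adamts1: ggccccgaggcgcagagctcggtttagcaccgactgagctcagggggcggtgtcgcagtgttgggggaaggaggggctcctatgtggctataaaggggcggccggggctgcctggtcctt

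The match began 46 bases before the start of Mmp3, 35 before that of Mmp13 and 63 before that of Mmp10. In the window of 250 bases before to 50 after the start, TGANTCA (which reads the same on both strands) was found in 4 of the 22 tested members that have such a window in the RefSeq table, these 3 and Adam19, or 18.2%. It was found in 5.98% of the 8752 tested genes with a window and in 8.97% of all 27025 genes with one. None of the 4 members that fell and have a window held the letters. The core letters of the aryl hydrocarbon receptor site are GCGTG on either strand. They were in 13 of the 22 tested members (59.1%) and in 57.4% of tested genes. Mmp3, Mmp13 and Mmp10 did not have them in these windows. Of the 4 members that fell and have a window, Adamts1 and Adamts14 had them, and Mmp11 and Ctsz did not. The antioxidant response element of NRF2, TGACNNNGC on either strand, was in 4 of the 22 (18.2%: Ctsd, Ctsz, Mmp24 and Timp2) and in 17.1% of tested genes. Some TGANTCA matches can lie inside a TGACNNNGC match. These are matches of letters, not measured binding.

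Among the secreted metalloproteinases, 5 of 12 genes in the table were tested. By limma 2 rose and 1 fell, where 3.35% of all tested genes were called higher and 4.06% lower. An unadjusted p under 0.05 was reached by 4 of the 5, against 23.7% of all tested genes. Mmp3 had 37.57, 35.68 and 35.45 FPKM in the control libraries and 48.35, 52.93 and 50.55 FPKM with Tdo2high CM. The groups did not overlap, and every treated library stood well above the highest control. Its mean went from 36.2 ± 1.16 to 50.6 ± 2.29 FPKM (SD, n = 3 per group), a log2 fold change of 0.47 ± 0.04 (SE) with adjusted p = 9.97e-05 by limma. Mmp3 made up 54.5% ± 0.860 of the summed FPKM of secreted metalloproteinases with control CM and 63.3% ± 1.08 with Tdo2high CM.

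Mmp13 had 3.37, 2.83 and 2.76 FPKM in the control libraries and 4.52, 4.98 and 4.01 with Tdo2high CM, again without overlap. Its mean went from 2.99 ± 0.334 to 4.50 ± 0.485 FPKM (log2 fold change 0.46 ± 0.08, limma adjusted p = 0.00987). Testing all genes without a filter took this call away (adjusted p = 0.0571). Mmp10, stromelysin-2 and the closest relative of Mmp3, had 1.11, 0.86 and 1.05 FPKM with control CM and 1.31, 0.89 and 1.52 with Tdo2high CM. These groups overlapped, and the log2 fold change of 0.15 (95% interval -0.10 to 0.40) was not called (adjusted p = 0.458 by limma). Mmp3 and Mmp10 can share reads: 140 windows of 50 bases, 8.37% of those of Mmp10, also occur in Mmp3 transcripts.

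Mmp3, Mmp13 and Mmp10 lie with Mmp12, Mmp1a and Mmp1b within 237.7 kb of chromosome 9 (7272514 to 7510242, GRCm38.p6). On this build Mmp13 spans 7272514 to 7283333, Mmp3 spans 7445822 to 7455975 and Mmp10 spans 7502342 to 7510242. Mmp12, which encodes macrophage elastase, and the genes Mmp1a and Mmp1b did not exceed 0.08 FPKM in any library. The cluster thus held 1 strongly expressed gene and 2 weakly expressed ones, and the 3 other members of it were near 0. Of the nearest tested genes outside the cluster, Dcun1d5 (log2 fold change 0.08) and Dync2h1 (0.20) lie 51.6 and 94.2 kb away on one side. Tmem123 (-0.0012) and Birc2 (0.07) lie 253.8 and 308.0 kb away on the other. None was called (adjusted p = 0.166, 0.214, 0.988 and 0.386 by limma), although the groups of Dcun1d5 did not overlap. The log2 fold change of Dync2h1 was larger than that of Mmp10 (0.15). That the cluster genes differ from these neighbours was not tested.

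**Figure D2:**
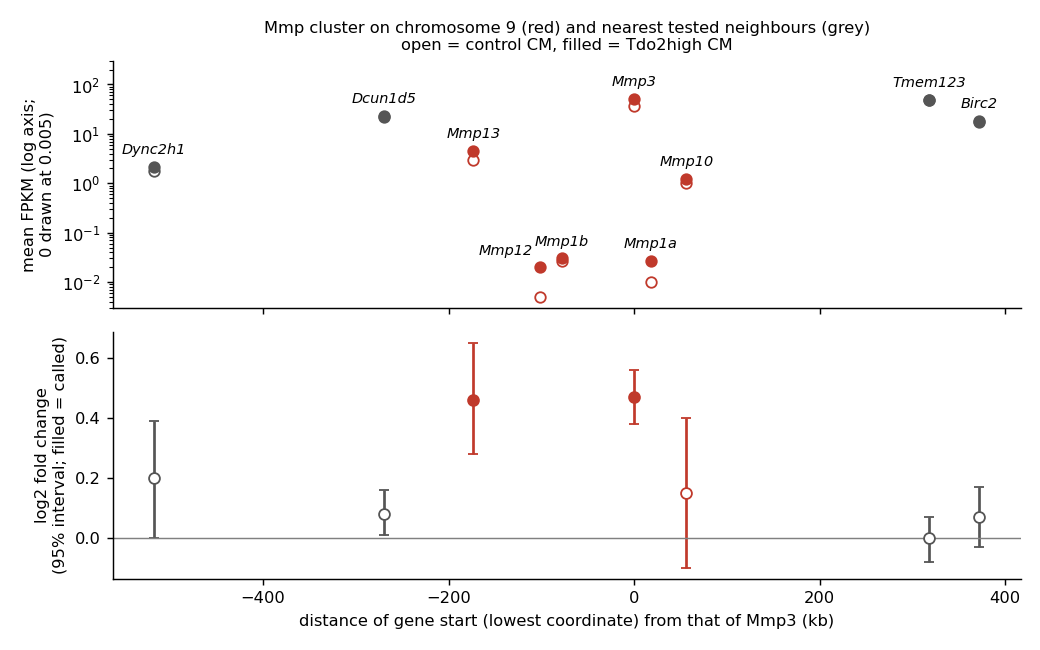
Mean FPKM (top, log axis, open for control CM and filled for Tdo2high CM, with a mean of 0 drawn at 0.005) and log2 fold change with its 95% interval (bottom, filled where called) against the distance of each gene's lowest coordinate from that of Mmp3, in kb, for the 6 cluster members (red) and the 2 nearest tested genes on each side (grey). Mmp3 and Mmp13 lie above their neighbours in the lower panel, and Mmp12, Mmp1a and Mmp1b lie under 0.1 FPKM in the upper one.

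Mmp11, stromelysin-3, which furin activates inside the cell, had 18.56, 19.68 and 19.19 FPKM with control CM and 16.62, 17.87 and 15.98 with Tdo2high CM. The groups did not overlap, and the log2 fold change was -0.18 ± 0.05 (limma adjusted p = 0.0434). Exons of Mmp11 overlap those of Chchd10, on the opposite strand, by 155 of its 2778 exon bases in the GENCODE annotation of the same build, and the labels do not say that reads were counted by strand. Chchd10 went from 9.46 ± 0.938 to 5.67 ± 0.217 FPKM (log2 fold change -0.65, adjusted p = 0.000446 by limma), and its part in the fall of Mmp11 was not tested. The call of Mmp11 ended in 9 of 16 alternatives: under the median of ratios (adjusted p = 0.0636), quantile normalization (0.0686), no intensity trend (0.0797) and no filter on low values (0.107), and without control CM replicate 1 (0.0707), 2 (0.115) or 3 (0.106) or Tdo2high CM replicate 1 (0.111) or 3 (0.138). Mmp28, epilysin, had 5.23 ± 0.203 and 4.61 ± 0.352 FPKM and was not called (-0.15, adjusted p = 0.171 by limma), although its groups did not overlap.

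Below the filter, the gelatinases showed values in opposite directions. Mmp2, gelatinase A, had 0.72, 0.71 and 0.74 FPKM with control CM and 0.48, 0.53 and 0.51 with Tdo2high CM. Mmp9, gelatinase B, had 0.75, 0.81 and 0.49 with control CM and 1.03, 1.02 and 0.83 with Tdo2high CM. Neither pair of groups overlapped, and these were the only 2 of the 39 members below the filter without overlap. Among all tested genes 29.2% had groups that did not overlap. In the fit with no filter on low values, which called 2.40% of 16397 genes, Mmp2 was lower (-0.19 ± 0.03, limma adjusted p = 0.0373) and Mmp9 was not called (0.22 ± 0.08, adjusted p = 0.240). At such levels rounding to 2 decimals and the added 1 FPKM weigh on the fold; the means of Mmp2 were 0.723 ± 0.0153 and 0.507 ± 0.0252 FPKM, and those of Mmp9 were 0.683 ± 0.170 and 0.960 ± 0.113 FPKM.

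Of the membrane-anchored metalloproteinases, 2 of 7 were tested. By limma neither was called and 0 had an unadjusted p under 0.05, against 7.41% and 23.7% of all tested genes. Mmp14, MT1-MMP, a collagenase of the cell surface that activates the Mmp2 precursor, had 82.10, 83.32 and 83.68 FPKM with control CM and 80.11, 78.97 and 81.66 with Tdo2high CM. It was the most abundant matrix metalloproteinase and held 94.5% ± 0.374 of the summed level of the membrane-anchored group with control CM. Its groups did not overlap but differed by little (log2 fold change -0.05 ± 0.03, 95% interval -0.11 to 0.01, adjusted p = 0.305 by limma). Mmp24, MT5-MMP, had 3.64, 3.35 and 3.21 FPKM and then 3.35, 3.20 and 3.51, with overlapping groups (-0.01 ± 0.06, adjusted p = 0.918). Mmp23, Mmp15, Mmp25, Mmp16 and Mmp17 did not pass the filter and reached at most 1.26 FPKM, the value of Mmp23 in control CM replicate 2.

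**Figure D3:**
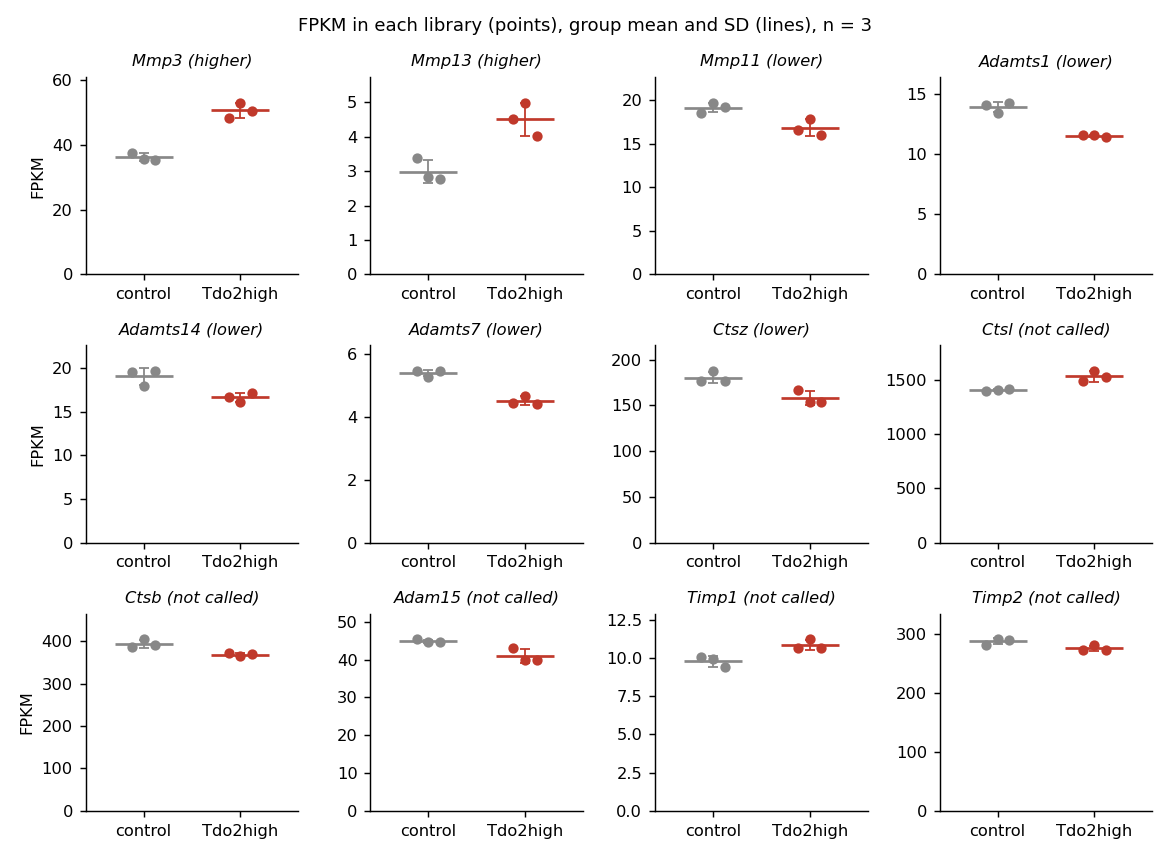
FPKM of 12 members in each library (points) with the group mean and SD (lines, n = 3 per group), for control CM (grey) and Tdo2high CM (red), on axes that start at 0. Mmp3 and Mmp13 show the widest gap between groups for their level, while Ctsl, Ctsb, Adam15, Timp1 and Timp2 show small gaps that were not called.

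Neither of the 2 tested inhibitors was called, although in both the groups did not overlap, as in 29.2% of all tested genes. Timp2, which blocks metalloproteinases and also helps Mmp14 to activate the Mmp2 precursor, had 281.41, 290.76 and 289.31 FPKM with control CM and 272.44, 280.70 and 272.57 with Tdo2high CM. Its highest treated library lay just under the lowest control. The log2 fold change was -0.06 ± 0.03 (95% interval -0.12 to 0.001, adjusted p = 0.217 by limma), and Timp2 held 96.7% ± 0.158 of the summed TIMP level with control CM. Timp1, an inhibitor of most secreted metalloproteinases, had 10.05, 9.91 and 9.39 FPKM with control CM and 10.68, 11.22 and 10.64 with Tdo2high CM. All 3 treated libraries stood above the controls, yet the log2 fold change of 0.14 ± 0.04 (95% interval 0.04 to 0.24) was not called (adjusted p = 0.0975). Neither TIMP passed by limma, and 1 of the 2 had an unadjusted p under 0.05, against 7.41% and 23.7% of all tested genes. Timp3 and Timp4 did not exceed 0.06 FPKM. The summed secreted metalloproteinase level went from 66.5 ± 1.09 to 80.0 ± 2.68 FPKM, with Mmp3 alone going from 36.2 ± 1.16 to 50.6 ± 2.29. The summed membrane-anchored level went from 87.9 ± 0.794 to 84.9 ± 1.47 FPKM. The summed TIMP level, mostly Timp2, went from 297 ± 4.82 to 286 ± 5.05 FPKM. Changes in these sums and the balance between them were not tested.

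Of 19 ADAM genes 7 were tested. By limma 0 were called and 1 had an unadjusted p under 0.05, against 7.41% and 23.7% of all tested genes. Adam10, which cuts Notch receptors, adhesion molecules and growth factor precursors, had 71.21, 68.93 and 72.37 FPKM with control CM and 72.17, 73.60 and 74.97 with Tdo2high CM. The groups overlapped (log2 fold change 0.05 ± 0.03, 95% interval -0.01 to 0.12, adjusted p = 0.307 by limma). Adam17, which releases TNF and ligands of the EGF receptor, had 26.99, 28.00 and 29.06 FPKM and then 26.98, 28.29 and 28.83, nearly the same range in both groups (0.00092, 95% interval -0.09 to 0.09, adjusted p = 0.992 by limma). Adam15, a membrane metalloprotease with an integrin-binding domain, had 45.34, 44.56 and 44.60 FPKM with control CM and 43.06, 39.75 and 39.98 with Tdo2high CM. Its groups did not overlap, and the log2 fold change of -0.13 ± 0.04 just missed the threshold (adjusted p = 0.0567 by limma), which it passed on the TPM scale (0.0463) and without Tdo2high CM replicate 1 (0.0258).

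Adam9, another membrane sheddase, had means of 39.1 ± 2.45 and 40.0 ± 0.535 FPKM. Adam33, Adam19 and Adam3 were weakly expressed, with control means of 2.62, 2.11 and 1.03 FPKM, and their intervals spanned 0. Adam3 is known as a sperm surface protein, and its values ran from 0.87 to 1.58 FPKM with overlapping groups. Among the 12 ADAM genes below the filter the highest value was 0.90 FPKM, that of Adam8 in control CM replicate 3.

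Of 17 ADAMTS genes 7 were tested, all 7 had a negative log2 fold change (median -0.16, against -0.01 over all tested genes, of which 56.4% were negative), and 3 were called lower by limma and 0 higher, against 4.06% and 3.35% of all tested genes. At an unadjusted p under 0.05 there were 4 of the 7, against 23.7% of all tested genes. The sign of Adamts6 turned under quantile normalization and without Tdo2high CM replicate 1 (0.01 in both). Of the 3 calls, 2 were left without control CM replicate 2 and 1 without any 1 of the other 5 libraries. Adamts1, which cuts the proteoglycans aggrecan and versican, had 14.02, 13.39 and 14.23 FPKM with control CM and 11.55, 11.58 and 11.43 with Tdo2high CM. The treated libraries lay close together and all below the controls. The mean went from 13.9 ± 0.437 to 11.5 ± 0.0794 FPKM (log2 fold change -0.25 ± 0.04, adjusted p = 0.00570 by limma), and this call held under all 16 alternatives, with adjusted p up to 0.0264. On GRCm38.p6 Adamts1 lies on chromosome 16 from 85793827 to 85803113.

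Adamts14, which removes the amino-terminal propeptide of procollagens, had 19.57, 17.94 and 19.63 FPKM with control CM and 16.61, 16.12 and 17.17 with Tdo2high CM. It was the most abundant ADAMTS gene, and the log2 fold change was -0.18 ± 0.04 (adjusted p = 0.0339 by limma). Adamts7, which cuts cartilage oligomeric matrix protein, had 5.45, 5.27 and 5.44 FPKM and then 4.44, 4.67 and 4.40, with a log2 fold change of -0.21 ± 0.05 (adjusted p = 0.0331 by limma). In neither gene did the groups overlap. The call of Adamts14 was lost in 7 of 16 alternatives: with no filter on low values (0.0887) and no intensity trend (0.0667), and without control CM replicate 1 (0.111) or 3 (0.106) or Tdo2high CM replicate 1 (0.0838), 2 (0.113) or 3 (0.0545). That of Adamts7 was lost in 9 of 16: with no filter (0.0792), quantile normalization (0.0517) and the replicate number as a block (0.0669), and without any 1 of the 6 libraries (0.0593 to 0.103).

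Adamts10, a gene linked to fibrillin microfibrils, had 9.07 ± 0.602 and 8.03 ± 0.345 FPKM without overlap of the groups, and was not called (-0.16, 95% interval -0.28 to -0.03, adjusted p = 0.121 by limma). Adamts5 and Adamts4, the aggrecanases, had log2 fold changes of -0.06 and -0.04, and that of Adamts6 was -0.02, each with overlapping groups. The summed ADAMTS level went from 57.5 ± 2.18 to 50.3 ± 0.699 FPKM. The 10 genes below the filter did not exceed 0.45 FPKM, the value of Adamts8 in control CM replicate 2. Among them Adamts2, which has the same procollagen activity as Adamts14, did not exceed 0.14 FPKM.

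The cathepsins held most of the RNA of the whole group. Ctsl, cathepsin L, a lysosomal cysteine endopeptidase, alone made up 46.5% ± 0.248 of the summed FPKM of all 71 genes with control CM and 49.5% ± 0.881 with Tdo2high CM. It had 1400.40, 1402.60 and 1412.93 FPKM with control CM and 1485.95, 1580.01 and 1525.98 with Tdo2high CM. The control libraries were tight and all treated libraries higher, but the log2 fold change of 0.12 ± 0.03 was not called (adjusted p = 0.0628 by limma). Ctsl was called under the median of ratios (0.0497), quantile normalization (0.0417) and robust variance estimates (0.0451). Of its exon bases 26.8% overlap other annotated genes, mostly the antisense RNA Gm47123.

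Ctsz, cathepsin Z, a lysosomal carboxypeptidase, had 176.42, 187.40 and 177.10 FPKM with control CM and 166.83, 153.13 and 153.64 with Tdo2high CM. Its mean fell from 180 ± 6.15 to 158 ± 7.77 FPKM without overlap (log2 fold change -0.19 ± 0.04, adjusted p = 0.0193 by limma), but it was not called with no filter on low values (0.0746), with no intensity trend (0.0636), or without control CM replicate 2 (0.0516) or Tdo2high CM replicate 2 (0.0709) or 3 (0.0709). Ctsb, cathepsin B, had 386.03, 404.13 and 391.51 FPKM and then 371.12, 363.85 and 369.27. Its groups did not overlap, and the log2 fold change of -0.10 ± 0.03 was not called (adjusted p = 0.0697 by limma) except on the TPM scale (0.0313) and under quantile normalization (0.0188). The 3 most abundant cysteine cathepsins thus had values in different directions, Ctsl above and Ctsb and Ctsz below their controls.

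Of the 7 cysteine cathepsins tested, Ctsz was the only one called by limma, against 7.41% of all tested genes. An unadjusted p under 0.05 was reached by 4 of the 7, against 23.7% of all tested genes. Ctsh, an aminopeptidase, had 54.5 ± 1.16 and 55.1 ± 0.513 FPKM, and Ctso had 12.7 ± 0.323 and 12.4 ± 0.448. Ctss, known from antigen processing, ran from 2.65 to 3.13 FPKM with control CM and from 2.10 to 2.72 with Tdo2high CM (-0.20, 95% interval -0.39 to -0.02, adjusted p = 0.177 by limma). Ctsc, which activates serine proteases of granules, had 1.69 and 1.74 FPKM. The aspartic protease Ctsd had 186.65, 191.61 and 188.18 FPKM with control CM and 194.46, 189.71 and 184.41 with Tdo2high CM, and the serine carboxypeptidase Ctsa had 78.92, 80.69 and 81.81 and then 81.67, 81.35 and 83.24. Both overlapped between groups, with log2 fold changes of 0.01 ± 0.03 (95% interval -0.06 to 0.07, adjusted p = 0.936 by limma) for Ctsd and 0.03 ± 0.03 (-0.03 to 0.09, adjusted p = 0.571) for Ctsa. Of the exon bases of Ctsd 34.4% are shared on the same strand with Gm49369. Ctsk, Ctsw and Ctsg, known from osteoclasts, lymphocytes and neutrophils, did not exceed 0.23 FPKM.

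**Figure D4:**
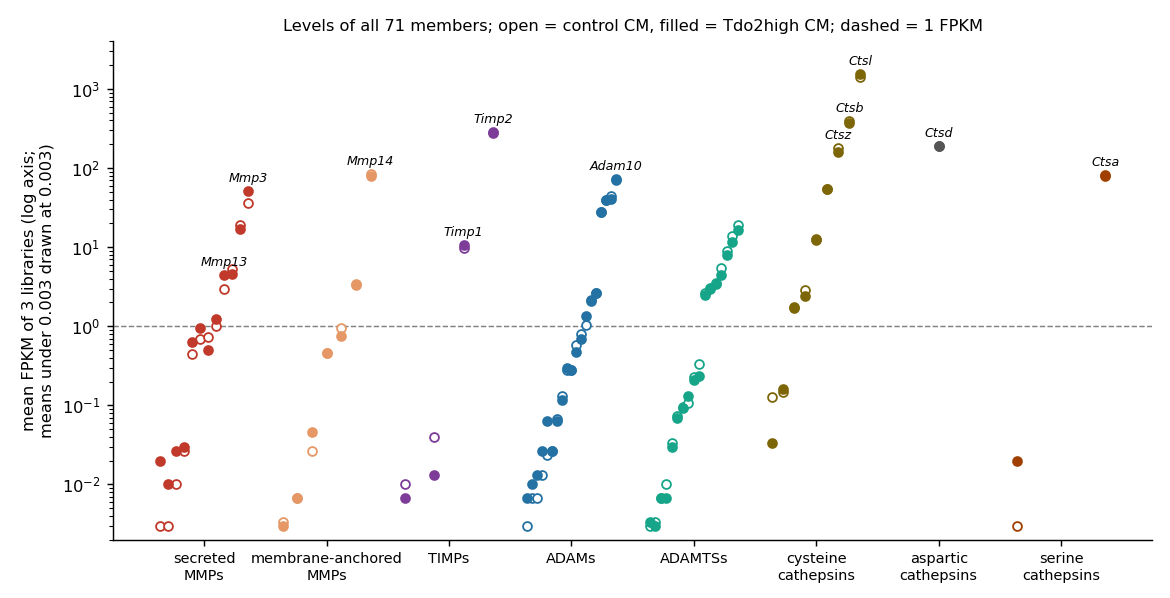
Mean FPKM (log axis) of all 71 members by subfamily, open for control CM and filled for Tdo2high CM, with the filter of 1 FPKM as a dashed line. Ctsl stands highest at 1405 and 1531 FPKM, and 39 members did not pass the filter.

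In order of level, the most abundant members with control CM were Ctsl, Ctsb, Timp2, Ctsd and Ctsz, with means of 1405, 394, 287, 189 and 180 FPKM. The SDs of Ctsd (2.54) and Ctsz (6.15) leave these neighbours close together with control CM, whereas with Tdo2high CM they had 190 ± 5.03 and 158 ± 7.77 FPKM. Among the metalloproteases taken by the rule, the most abundant were Mmp14 (83.0 ± 0.828 FPKM), Adam10 (70.8 ± 1.75), Adam15 (44.8 ± 0.439), Adam9 (39.1 ± 2.45) and Mmp3 (36.2 ± 1.16). With Tdo2high CM, Mmp3 at 50.6 ± 2.29 FPKM lay above Adam15 at 40.9 ± 1.85 and Adam9 at 40.0 ± 0.535. Adjacent to the filter, by the third-highest of their 6 values, Mmp10 (1.11 FPKM), Adam3 (1.29) and Ctsc (1.74) were just inside, and Mmp9 (0.83), Mmp23 (0.82) and Adam8 (0.79) just outside. No tested member passed through the libraries of 1 group alone, and 23 of the 39 members below the filter stayed at or under 0.1 FPKM.

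Of the 32 tested members 15 had groups that did not overlap, or 46.9%, against 29.2% of all tested genes (11.6% with the Tdo2high libraries above and 17.5% below). They were Mmp3, Mmp13, Timp1 and Ctsl above the controls, and Mmp11, Mmp28, Mmp14, Timp2, Adam15, Adamts14, Adamts1, Adamts10, Adamts7, Ctsb and Ctsz below. Exons of 14 of the 32 tested members overlap those of another annotated gene. Besides Mmp11, 2 of these do so on the opposite strand with a gene that was itself called: Adam17 with Iah1 (0.23) over 311 exon bases, and Ctsa with Pltp (-0.23) over 495. Neither Adam17 nor Ctsa was called.

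Genes that act on these proteases were read from lists of activators, inhibitors and substrates. Of 13 tested activators and partners of metalloproteases 1 fell and 0 rose by limma, a share near the 7.41% of all tested genes, with 4 at an unadjusted p under 0.05 (23.7% of all tested genes). The one that fell was Plau, urokinase, which through plasmin activates metalloproteinase precursors. It had 77.89, 79.30 and 77.30 FPKM with control CM and 69.71, 72.01 and 71.43 with Tdo2high CM, without overlap (log2 fold change -0.14 ± 0.03, adjusted p = 0.0173). Its call ended with no intensity trend (0.0615) and without control CM replicate 1 (0.0503) or Tdo2high CM replicate 1 (0.0617) or 3 (0.0521). Furin, which cleaves the precursors of membrane metalloproteases, had 38.7 ± 0.622 and 38.7 ± 0.721 FPKM, and Bsg, an inducer of metalloproteinases and the most abundant of these genes, had 170 ± 7.91 and 169 ± 2.03.

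Reck, a membrane inhibitor of metalloproteinases and the only one tested of 3 such genes in the table, had 6.30 ± 0.125 and 5.89 ± 0.146 FPKM and was not called (adjusted p = 0.320 by limma). Of 6 tested related metalloproteases and ADAMTS-like proteins 0 were called by limma and 1 had an unadjusted p under 0.05, against 7.41% and 23.7% of all tested genes. The most abundant was Ece1, at 164 ± 2.47 and 159 ± 1.44 FPKM. Of 14 genes in a list of cathepsin inhibitors, processing and sorting factors and other lysosomal proteins, 5 had an unadjusted p under 0.05 by limma, against 23.7% of all tested genes. After adjustment 1 fell and 0 rose, again near 7.41%. This was Scpep1, a serine carboxypeptidase of the lysosome that is not known as an inhibitor or sorting factor of cathepsins, which went from 124 ± 2.95 to 113 ± 2.31 FPKM (-0.14 ± 0.03, adjusted p = 0.0233 by limma). It was not called with no filter (0.0551), with no intensity trend (0.0761), or without control CM replicate 2 (0.0562) or 3 (0.0721) or Tdo2high CM replicate 1 (0.0745) or 2 (0.0782). Cst3, the secreted cathepsin inhibitor cystatin C, had 277 ± 20.4 and 277 ± 5.81 FPKM, and Psap, the most abundant gene of that list, had 322 ± 2.18 and 335 ± 6.31.

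Among 20 tested proteins that ADAM10 or ADAM17 are known to shed, 5 rose and 0 fell by limma, where 3.35% of all tested genes were called higher. The median log2 fold change was 0.01 against -0.01 over all tested genes. At an unadjusted p under 0.05 (limma, either direction) there were 10, against 23.7% of all tested genes. Of the 10, Jag1 (log2 fold change -0.22), Hbegf (-0.13), Vcam1 (-0.12) and Sdc1 (-0.08) were lower and not called, and only Hbegf among them had overlapping groups. Tnfrsf1b (0.08) was higher and not called, and the rest were the 5 that rose. The adhesion molecule Alcam had 2.03, 2.27 and 2.46 FPKM with control CM and 4.26, 3.81 and 4.09 with Tdo2high CM. All treated libraries stood well above the controls, at 1.80 times the control mean (log2 fold change 0.64 ± 0.07, adjusted p = 0.000757), and the call held under all 16 alternatives. Nrg1, a ligand of ErbB receptors, had 5.72, 5.02 and 5.01 FPKM and then 7.15, 6.50 and 7.07 (0.34 ± 0.06, adjusted p = 0.0104 by limma), a call lost with no filter on low values (0.0548). The heparan sulfate proteoglycan Sdc4 went from 316 ± 9.37 to 355 ± 8.32 FPKM, the chemokine Cx3cl1 from 14.2 ± 0.537 to 16.2 ± 0.416 and the TNF receptor Tnfrsf1a from 46.2 ± 2.59 to 52.3 ± 2.30. These 3 calls ended when single libraries were left out: without Tdo2high CM replicate 2 (0.0523) or 3 (0.0605) for Sdc4, and in 5 of the 6 fits without 1 library for both Cx3cl1 (up to 0.0968, called without control CM replicate 2) and Tnfrsf1a (up to 0.133, called without control CM replicate 2). With no filter on low values none of the 3 was called (0.0517 for Sdc4, 0.0654 for Cx3cl1 and 0.126 for Tnfrsf1a). No intensity trend ended the calls of Sdc4 (0.0516) and Tnfrsf1a (0.104), and quantile normalization (0.0541) and the replicate block (0.0915) that of Tnfrsf1a. The most abundant substrate not called was Aplp2, at 328 ± 4.06 and 337 ± 6.13 FPKM. Shedding itself was not measured.

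**Figure D5:**
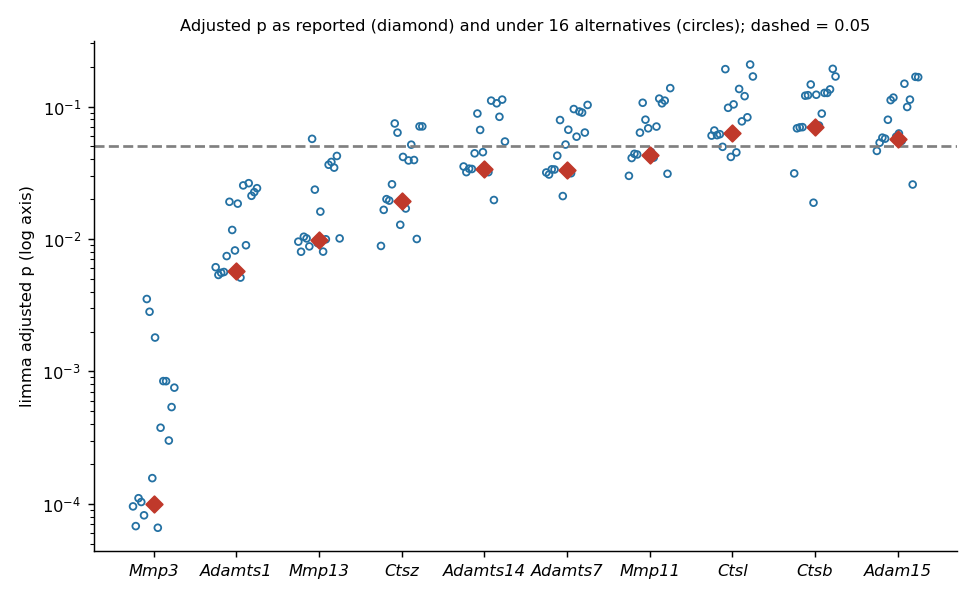
Adjusted p by limma (log axis) of the 7 called members and of Ctsl, Ctsb and Adam15, as reported (diamond) and under each of 16 alternatives (circles), with the threshold of 0.05 as a dashed line. Mmp3 and Adamts1 stay below the line throughout, Mmp13 crosses it once, and the other 7 genes have circles on both sides.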

How the data were processed

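PolyA RNA of 6 samples of 4T1-LM3 cells was sequenced at BGI, per the labels' protocols. The authors deposited FPKM, rounded to 2 decimals, per the file headers; the build was GRCm38, per the submitters' processing notes, and no aligner or quantifier is given in the sources used here. Whole reads were not recovered. In 1240 weakly expressed genes, 19.1% of 5189 values lay within 0.1 of a whole multiple of the lowest value of the same gene, where an even spread gives 20%. The lowest value can itself stand for several reads, so this check cannot decide whether whole reads could be recovered. Depth is not known and count models were left out. The precision of the tests rests on the variation among libraries.

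Genes with at least 1 FPKM in at least 3 libraries (10804 of 16426) were tested as log2(FPKM + 1) with limma 3.58.1 in R 4.3.3 (intensity trend, two-sided, Benjamini-Hochberg over all tested genes, threshold 0.05). The fit was also run on simulated libraries with known changes as a self-test, whose outcome is not given here. A fold change on this scale understates that of low genes; ratios are of mean FPKM. With 3 against 3 samples an exact permutation test of 1 value cannot go below 0.1, so none is given. The members and lists were chosen with earlier results of these data known. Every tested member is named; called members and the 2 most abundant of each subfamily are given in every library, as are some others chosen after their values were seen, and of the partner lists the called genes and the most abundant uncalled one, with Furin and Cst3 added. Positions and promoters are from RefSeq (GRCm38.p6), which held promoters for 43 of the 71 members, and exon overlaps and shared windows of 50 bases from GENCODE on the same build. Alternatives were 2 other pseudocounts (0.1 and 0.5), filters, scalings, variance models, a replicate block and leaving out each library. Figures were drawn with matplotlib 3.10.9.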

Additional observations from a re-analysis of the deposited data

How the results depend on the processing

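Under the 16 alternatives Mmp3 and Adamts1 kept their calls and directions, and Mmp13 lost its call in 1, no filter on low values. With no filter, 1 member was higher and 2 lower (1 secreted metalloproteinase higher and 1 lower, 1 ADAMTS lower, 0 cysteine cathepsins lower). In all 199 and 195 genes were higher and lower, and 1 and 1 in the partner lists. Of the calls reported above only those of Mmp3 and Adamts1 were kept in that fit. The lower secreted metalloproteinase was Mmp2, which the main fit did not test, and Mmp11 was not called. Without an intensity trend 2 members were lower (0 secreted metalloproteinases, 0 cysteine cathepsins), with 277 genes lower in all and 1 in the partner lists. The median of ratios gave 1 cysteine cathepsin higher and 0 secreted metalloproteinases lower, quantile normalization 1 and 0 with 2 cysteine cathepsins lower, robust variance estimates 1 cysteine cathepsin higher, and the TPM scale 1 ADAM and 2 cysteine cathepsins lower. The cause of these differences was not tested.

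Without 1 library, 209 to 293 genes were higher and 186 to 266 lower in all, and 2 members were higher and 1 to 3 lower: 0 to 1 secreted metalloproteinases, 0 to 1 ADAMs, 1 to 2 ADAMTSs and 0 to 1 cysteine cathepsins. In the partner lists 2 to 6 were higher and 0 to 2 lower. Fewer samples entered each of these fits. The labels do not say whether equal replicate numbers pair the samples. Deviations from the group means correlated at -0.0230, -0.0305 and 0.0180 for equal numbers, and at -0.0765 to 0.0917 for unequal ones. No sample correlated best with the one of its own number. With 3 samples per group these values show no effect shared by equal replicate numbers but cannot tell how the samples were made. With the replicate number as a block 2 members were higher and 4 lower, Adamts7 losing its call (and among substrates Tnfrsf1a, adjusted p = 0.0915), and 296 and 326 genes in all.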
